A study of Homo sapiens with 12 samples.

Results

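The protein genes of the mitochondrial ribosome were followed in human neurons treated with a ZCCHC17 siRNA. The genes were chosen by symbol: MRPL or MRPS followed by a number and, at most, 1 letter A to C, with a mean of at least 50 raw counts over the 12 libraries. Of the 59653 gene symbols in the count table, 78 carried such a name (49 MRPL and 29 MRPS), and 76 met the count minimum (48 MRPL and 28 MRPS). The neurons were grown from pluripotent cells reprogrammed from IMR-90, an established human fibroblast line. A negative control siRNA was given to the cells of 6 libraries (siNC) and ZCCHC17 siRNA to those of the other 6 (siZCC); ZCCHC17 is a zinc knuckle protein named in the series title as a modulator of neuronal RNA splicing. Both groups share the same cell line, so all 12 libraries come from 1 genetic background, and nothing in the labels says whether the replicates were separate differentiations; p-values therefore measure the spread between these libraries, which may be technical. Cells of both groups are labelled neurons, while their titles also carry the letters NPC, which the labels do not explain.

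Mitochondria hold their own ribosome, which translates the few proteins encoded by mitochondrial DNA, all of them subunits of the oxidative phosphorylation complexes. Its 12S and 16S ribosomal RNAs (MT-RNR1 and MT-RNR2) are made inside the organelle, whereas every protein is encoded in the nucleus, made in the cytosol and imported; MRPL genes were named for the large subunit and MRPS genes for the small one. Some of these proteins descend from bacterial ribosomal proteins and others are found only in mitochondria. Neurons depend on mitochondrial respiration for much of their energy, and inherited defects of mitochondrial translation often affect the brain.

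The genes lie on many chromosomes, and short stretches of their promoters are shown first because the letters of 2 motifs were more frequent in them than in other promoters, a feature that the choice by name did not use. Promoters from RefSeq (GRCh38.p14), each 250 bases before to 50 bases after the start site, were found for 67 of the 76 genes. Letters matching an ETS-type motif (CCGGAAG, on either strand), bound by ETS factors such as GABP (NRF2), occurred in 28 of 67 promoters (41.8%), against 10.7% of all 27305 promoters and 20.3% of the 7639 promoters of genes in the same range of expression. Letters of a YY1-type motif (AAGATGGC, either strand), bound by YY1, occurred in 19 of 67 (28.4%), against 3.03% and 5.37%. Letters of an NRF1-type motif (GCGCATGCGC, which reads the same on both strands) occurred in 1 of 67 (1.49%), against 1.36% and 2.40%. The 3 motifs do not contain one another. Both the ETS-type and the YY1-type letters were present in 8 of 67 promoters (11.9%), against 0.597% of all promoters and 1.31% of those in the same range of expression. In 5 of these the YY1-type letters began after the start site, and they are shown with the matched letters in capitals, each 30 bases long, 5′ to 3′ on the strand of the gene.
MRPL20 ETS, chr1:1407296-1407325 (minus strand): caggggctgacCCGGAAGcgctcgtgacca
MRPL20 YY1, chr1:1407260-1407289 (minus strand): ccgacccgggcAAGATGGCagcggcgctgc
MRPS10 ETS, chr6:42217865-42217894 (minus strand): ccgctgtaaccCCGGAAGcaatcctgagag
MRPS10 YY1, chr6:42217834-42217863 (minus strand): tcgggaccggcAAGATGGCggcgcggacag
MRPS18A ETS, chr6:43687804-43687833 (minus strand): ggcgctacgttCCGGAAGcggaaatggacg
MRPS18A YY1, chr6:43687764-43687793 (minus strand): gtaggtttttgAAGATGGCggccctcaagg
MRPL51 ETS, chr12:6493348-6493377 (minus strand): cggcaggcggaCCGGAAGcactgaggcggg
MRPL51 YY1, chr12:6493223-6493252 (minus strand): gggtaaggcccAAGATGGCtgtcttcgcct
MRPL38 ETS (reverse complement), chr17:75905074-75905103 (minus strand): tccaacgggcaCTTCCGGagccgggcgtct
MRPL38 YY1, chr17:75904860-75904889 (minus strand): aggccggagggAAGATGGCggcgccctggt

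In 4 of these 5 genes the ETS-type letters shown lay within 104 bases before the start site and the YY1-type letters 9 to 21 bases after it; in MRPL38 they lay 208 bases before and 6 bases after. Across the family the YY1-type letters began at or after the start site in 14 of the 19 promoters that hold them (73.7%), against 53.6% of the 828 promoters of all genes that hold them. None of the 5 genes passed the test between siZCC and siNC. Of the 12 genes that did, 11 had a promoter among those searched. Any of the letters were held by 3 of these 11, beside 40 of 67 promoters over the family (59.7%). The 3 matches are shown here.
MRPL33 ETS, chr2:27771700-27771729 (plus strand): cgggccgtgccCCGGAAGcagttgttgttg
MRPS33 ETS (reverse complement), chr7:141014934-141014963 (minus strand): agagggcgggcCTTCCGGgacgagggcgcg
MRPL17 NRF1, chr11:6683402-6683431 (minus strand): aggctctgatGCGCATGCGCaaacacgttc

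MRPL33 and MRPS33 were lower in siZCC and MRPL17 was higher. The ETS-type letters were thus present in 2 of the 6 promoters of genes that fell and 0 of the 5 of genes that rose. The YY1-type letters were in 0 of 11. Over the 67 promoters of the family the shares were 41.8% and 28.4%. Whether the letters and the calls are related was not tested. A match of letters is a description of the sequence and not a measured binding site.

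Library depth was 90755953 to 120023356 counts in siNC and 76115083 to 105389055 in siZCC. ZCCHC17 itself was at 56.9 ± 2.49 CPM (TMM-scaled counts-per-million; SD, n = 6) in siNC and 9.999 ± 0.507 in siZCC, a log2 fold change of -2.51 (SE 0.0402), with every library on the side its label gives. The cells expressed the neuronal markers, whose summed level over 16 genes was 4532 to 5082 CPM in siNC and 4219 to 4726 in siZCC (1 of 16 higher and 6 lower in siZCC); microglial markers stood at 1.21 to 2.35 and 1.25 to 2.22 CPM in sum, with 4 of 7 below the filter. Proliferation markers were present and lower in siZCC. Over 15 genes they summed to 1021 to 1140 CPM in siNC and 814 to 947 in siZCC (0 higher, 13 lower). The 9 neural progenitor markers summed to 5865 to 6243 and 5915 to 6444 CPM (3 higher, 1 lower). Astrocyte markers summed to 1627 to 1851 and 1686 to 2007 CPM over 7 genes (2 higher, 1 lower). Mesenchymal markers summed to 179 to 408 and 156 to 287 CPM over 6 genes (1 higher, 2 lower). Oligodendrocyte markers stood at 147 to 184 and 150 to 184 CPM (0 higher, 1 lower of 5 tested). Pluripotent markers stood at 15.3 to 16.9 and 19.9 to 21.8 CPM (2 higher, 0 lower of 3 tested). Of all genes tested, 11.4% were higher and 10.8% lower. Fewer cells of a type and less RNA per cell cannot be told apart in bulk libraries, and the part of these shifts in the ribosomal values was not tested. Counts of IL1B divided the libraries, with 449 to 1512 counts in siNC 2, 3 and 6 and siZCC 1, 4 and 5 and 2 to 12 in the others, so that each group had 3 libraries on each side.

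The mitochondrial ribosomal protein genes as a family stayed close to their control level after ZCCHC17 siRNA. Of the 76 genes, 12 (15.8%) passed an adjusted p of 0.05 in edgeR's quasi-likelihood test, 6 of them higher and 6 lower in siZCC. The same threshold was passed by 22.2% of all 24671 genes tested (11.4% higher and 10.8% lower), by 27.9% of the 18464 genes with a mean of at least 50 counts and by 31.0% of the 10014 genes in the CPM range of the family. In the MRPL set 3 of 48 rose and 3 fell (12.5% in all), and in the MRPS set 3 of 28 rose and 3 fell (21.4%); whether these shares differ was not tested. The median log2 fold change was -0.0048 over MRPL genes and 0.010 over MRPS genes, beside -0.0016 over all genes tested. Signs were split, 39 positive and 37 negative. Single libraries moved these small counts: 6, 5 and 6 MRPL genes were higher without siNC 2, siNC 3 and siZCC 2, 5 were lower without siZCC 2, and 1 MRPS gene was higher without siNC 1, siZCC 5 or siZCC 6. With the libraries high in IL1B alone 0 of the 76 genes passed and with those low in IL1B alone 1 did, at 3 libraries a group. Among the 12 genes, 3 had values on an IL1B side more than 1.5 times away from the value over all libraries. MRPS6 had a log2 fold change of 0.05 in the high and 0.20 in the low libraries, MRPS33 of -0.17 and -0.06, and MRPL1 of -0.21 and -0.08. Whether the sides differ was not tested.

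Individual changes were small. They ran from -0.18 on the log2 scale for MRPS17, or 11.9% lower, to 0.15 for MRPL10, or 10.8% higher. The median size of the log2 fold change, regardless of sign, was 0.049, beside 0.110 over all genes tested and 0.077 over genes in the same CPM range. The estimates were precise, with a median SE of 0.0374, and the 95% interval lay inside a 1.2-fold change in either direction for 74 of 76 genes. The exceptions were MRPL2, a protein near the catalytic centre of the large subunit, with an interval from 0.390 to 20.2% higher, and MRPS17, with percent changes from -17.7 to -5.73. Intervals this narrow were found for 45.8% of all genes tested, 61.2% of genes with at least 50 counts and 78.6% of genes in the same CPM range. Tested against a minimum change of 1.2-fold, 0 of the 76 genes passed. That test also left 349 of the 24671 genes.

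**Figure D1:**
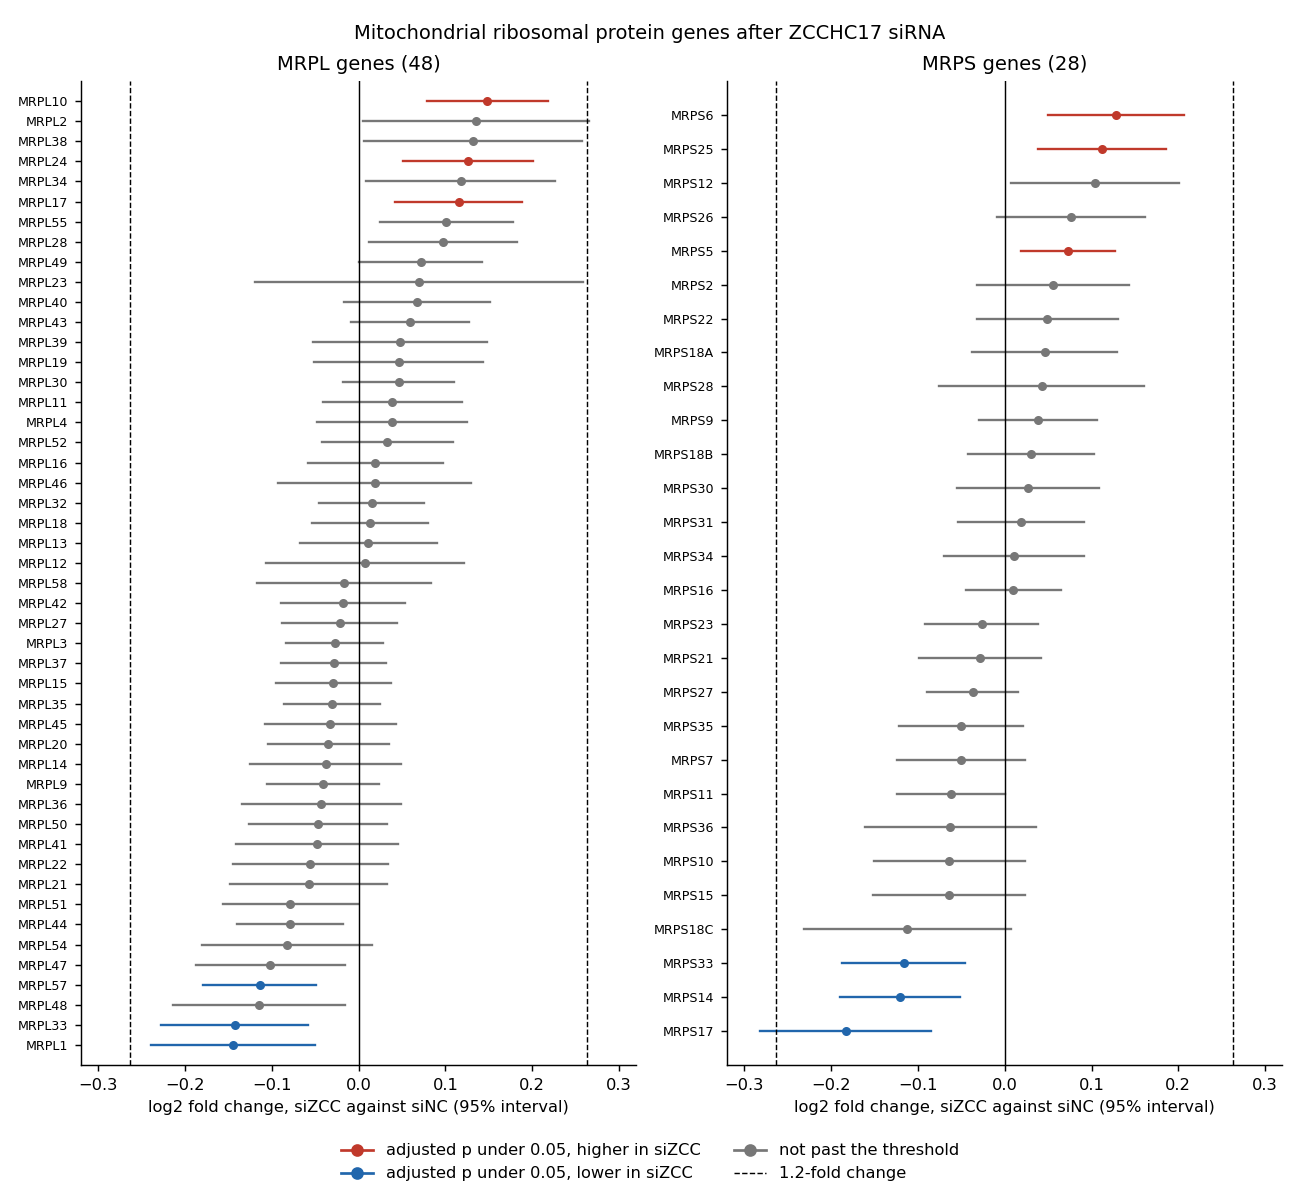
Log2 fold change of siZCC against siNC (x axis) for each of the 48 MRPL genes (left) and 28 MRPS genes (right), ordered by value; points are edgeR estimates over 6 libraries a group, bars are 95% intervals, and dashed lines mark a 1.2-fold change. The values lie on both sides of 0 between -0.18 and 0.15, with 6 coloured genes on either side past an adjusted p of 0.05.

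Of 30 large subunit proteins of bacterial descent 3 rose and 2 fell (16.7%, against 22.2% of all genes tested and 31.0% in the same CPM range), with a median log2 fold change of 0.012. MRPL10, MRPL17 and MRPL24 rose, and MRPL1 and MRPL33 fell.

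MRPL10 (chr17:47823272-47831534, minus strand, GENCODE 29 on GRCh38) anchors the flexible stalk that recruits translation factors to the large subunit. Its level was 41.5, 43.5 and 46.1 CPM (lowest, median and highest library) in siNC and 46.4, 48.6 and 50.1 CPM in siZCC. Every siZCC library was above every siNC library. The means were 43.7 ± 2.06 and 48.4 ± 1.28 CPM (SD, n = 6), a log2 fold change of 0.15 (SE 0.0331, edgeR adjusted p = 0.00403). Groups without overlap were found for 4 of the 76 genes, the others being MRPS5 (higher) and MRPL33 and MRPS17 (lower), against 9.74% of all genes tested (5.25% higher and 4.5% lower). MRPL12, whose copies form the stalk that MRPL10 holds, had the smallest change of any MRPL gene, at 9.06 CPM in siNC and 9.11 in siZCC (log2 fold change 0.0074, SE 0.0541), and its sign turned in several alternatives. Of its exon bases, 68.2% are shared with AC139530.2 on the same strand, so its count depends on how shared reads were assigned. MRPL11, at the base of the stalk, was at 20.5 and 21.1 CPM, and MRPL54 at 13.3 and 12.5 CPM; neither passed the test. MRPL53, the fifth gene listed for the stalk region, had too few counts for the test.

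The exit tunnel, through which the new peptide leaves the ribosome, is lined at its mouth by a second group of large subunit proteins, and 2 of the 6 tested rose (33.3%, near the 31.0% called in either direction in the same CPM range). The signs were 3 positive and 3 negative, with a median log2 fold change of 0.018. MRPL24 (chr1:156737303-156741590, minus strand) was at 27.5, 28.7 and 30.7 CPM in siNC and 29.8, 31.7 and 32.8 CPM in siZCC. The groups overlapped at their edges, and the log2 fold change was 0.13 (SE 0.0354, edgeR adjusted p = 0.0170). MRPL17 (chr11:6680782-6683401, minus strand) was at 27.5, 28.8 and 30.5 CPM in siNC and 30.1, 30.8 and 33.7 CPM in siZCC, also with some overlap. The fit gave a log2 fold change of 0.12 (SE 0.0347, edgeR adjusted p = 0.0240), and the call was lost in 4 of 12 fits that left out 1 library (siNC 4 or 6, siZCC 1 or 6, with a highest adjusted p of 0.0647). The other tunnel proteins did not pass the test: MRPL23 had a log2 fold change of 0.07, MRPL45 of -0.03, MRPL22 of -0.06 and MRPL47 of -0.10. MRPL45, which ties the ribosome to the inner membrane, was at 24.5 CPM in siNC and 23.9 in siZCC.

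MRPL33 (chr2:27771717-27988087, plus strand), a small bacterial-type protein of the large subunit, was at 18.9, 19.2 and 20.6 CPM in siNC and 16.3, 17.8 and 18.9 CPM in siZCC. The groups did not overlap, but the lowest siNC library and the highest siZCC library stood at 18.87 and 18.86 CPM. This was a log2 fold change of -0.14 (SE 0.0401, edgeR adjusted p = 0.0168). MRPL33 shares 21.1% of its exon bases with the same-strand gene BABAM2, whose own log2 fold change was -0.03 (edgeR adjusted p = 0.684). MRPL1 (chr4:77862520-77952790, plus strand) is the protein of the L1 stalk, on the side where spent tRNA leaves the ribosome. It was at 17.5, 17.9 and 19.8 CPM in siNC and 15.2, 16.7 and 17.5 CPM in siZCC, where the highest siZCC library just passed the lowest siNC library, and the log2 fold change was -0.14 (SE 0.0446, edgeR adjusted p = 0.0274), and the call was lost without siNC 3, siNC 6, siZCC 3 or siZCC 4 (highest adjusted p 0.0721).

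Large subunit proteins listed as specific to mitochondria gave 0 genes higher and 1 lower of 20 tested, MRPS30 and MRPS18A among them. MRPS18A shares the MRPS18 name with MRPS18C, which was listed as bacterial-type. The share called was 5.0%, against 22.2% of all genes tested and 31.0% in the same CPM range, with a median log2 fold change of -0.018. The one that fell was MRPL57 (chr13:21176645-21179084, plus strand), at 33.8, 35.7 and 37.5 CPM in siNC and 31.9, 32.7 and 33.9 CPM in siZCC. Only the top siZCC library reached the lowest siNC library, and the log2 fold change was -0.11 (SE 0.0309, edgeR adjusted p = 0.0138), and all 12 fits without 1 library kept the call. The central protuberance is the knob that contacts the small subunit and in mitochondria holds a transfer RNA in place of the bacterial 5S RNA. It had 0 of 7 genes past the test, against the same 22.2% of all genes tested. Its members ran from a log2 fold change of -0.12 for MRPL48 (edgeR adjusted p = 0.0906) to 0.13 for MRPL38 (adjusted p = 0.127), with MRPL58, a peptidyl-tRNA hydrolase built into the ribosome, at -0.02.

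In the small subunit, 16 bacterial-type genes were tested, MRPS24 below the count minimum included. MRPS5 and MRPS6 rose and MRPS14 and MRPS17 fell (25.0%, against 22.2% of all genes tested and 31.0% in the same CPM range). The median log2 fold change was -0.039. MRPS17 (chr7:55951819-55956501, plus strand), a protein of the body of the small subunit, had the largest change of the whole family. Its level was 7.20, 7.56 and 8.29 CPM in siNC and 6.48, 6.78 and 6.90 CPM in siZCC, with no overlap. The log2 fold change was -0.18 (SE 0.0466, edgeR adjusted p = 0.00936). It shares 21.8% of its exon bases with the same-strand gene AC092647.5, which averaged 41.1 counts, and 5.19% with NIPSNAP2, whose log2 fold change was -0.0086.

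MRPS14 (chr1:175010789-175023425, minus strand), a protein of the head of the small subunit, was at 28.4, 29.99 and 30.7 CPM in siNC and 26.3, 26.9 and 29.1 CPM in siZCC. MRPS14 thus had a log2 fold change of -0.12 (SE 0.0328, edgeR adjusted p = 0.0137). The top siZCC library lay inside the siNC range and the others below it. MRPS14 shares 13.5% of its exon bases with CACYBP on the opposite strand, whose log2 fold change was -0.08 (edgeR adjusted p = 0.0765). The strand setting of the counts is not known. MRPS6 (chr21:34073224-34143034, plus strand), at the platform of the small subunit, was at 31.99, 34.3 and 36.4 CPM in siNC and 34.4, 37.3 and 39.5 CPM in siZCC. The log2 fold change of MRPS6 was 0.13 (SE 0.0372, edgeR adjusted p = 0.0200), and the call was lost without siZCC 6 (adjusted p = 0.0609). In MRPS6, 6.35% of the exon bases are shared with the same-strand gene SLC5A3, which itself was higher in siZCC (log2 fold change 0.25, adjusted p = 0.0128).

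MRPS5 (chr2:95087207-95149434, minus strand), near the entry of the mRNA channel, was at 63.4, 65.5 and 66.4 CPM in siNC and 66.7, 68.6 and 70.4 CPM in siZCC. The groups did not overlap, although the change was the smallest of the 12, with a log2 fold change of 0.07 (SE 0.0256, edgeR adjusted p = 0.0492), and only the fit without siNC 3 among the 12 that left out 1 library kept the call, with adjusted p between 0.0453 and 0.122. MRPS5 shares 8.19% of its exon bases with the same-strand gene ZNF514, whose log2 fold change was -0.02 (edgeR adjusted p = 0.745). MRPS12, which lies at the decoding centre, did not pass the test (15.4 and 16.6 CPM, adjusted p = 0.118). MRPS16, the most abundant MRPS gene in CPM, was at 87.7 and 88.3 CPM and had the smallest change of the MRPS set, 0.0097 on the log2 scale.

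Small subunit proteins found only in mitochondria gave 1 gene higher and 1 lower of 10 tested, with a median log2 fold change of 0.015. The share called in either direction was 22.2% over all genes tested and 31.0% in the same CPM range. MRPS25 (chr3:15042460-15065335, minus strand) was at 59.7, 63.3 and 68.0 CPM in siNC and 66.4, 68.0 and 71.3 CPM in siZCC. The highest siNC libraries lay inside the siZCC range. The log2 fold change was 0.11 (SE 0.0350, edgeR adjusted p = 0.0282). It was the single call of the 12 that did not pass the exact permutation test over all 924 assignments of the 12 libraries to groups of 6 (adjusted p = 0.0805 over all genes), and it was lost without siNC 1, siNC 3, siZCC 2 or siZCC 5. MRPS25 shares 22.2% of its exon bases with NR2C2 on the opposite strand, whose log2 fold change was 0.09 (edgeR adjusted p = 0.202). MRPS33 (chr7:141002610-141015228, minus strand) was at 31.1, 32.3 and 34.7 CPM in siNC and 29.2, 30.04 and 31.4 CPM in siZCC, with a log2 fold change of -0.12 (SE 0.0335, edgeR adjusted p = 0.0191). The exact permutation test passed 12 of the 76 genes, 11 of the 12 called by edgeR and MRPL44, against 18.0% of all genes tested. MRPL44, a large subunit protein related to ribonuclease III, had a log2 fold change of -0.08 and an edgeR adjusted p of 0.0588.

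**Figure D2:**
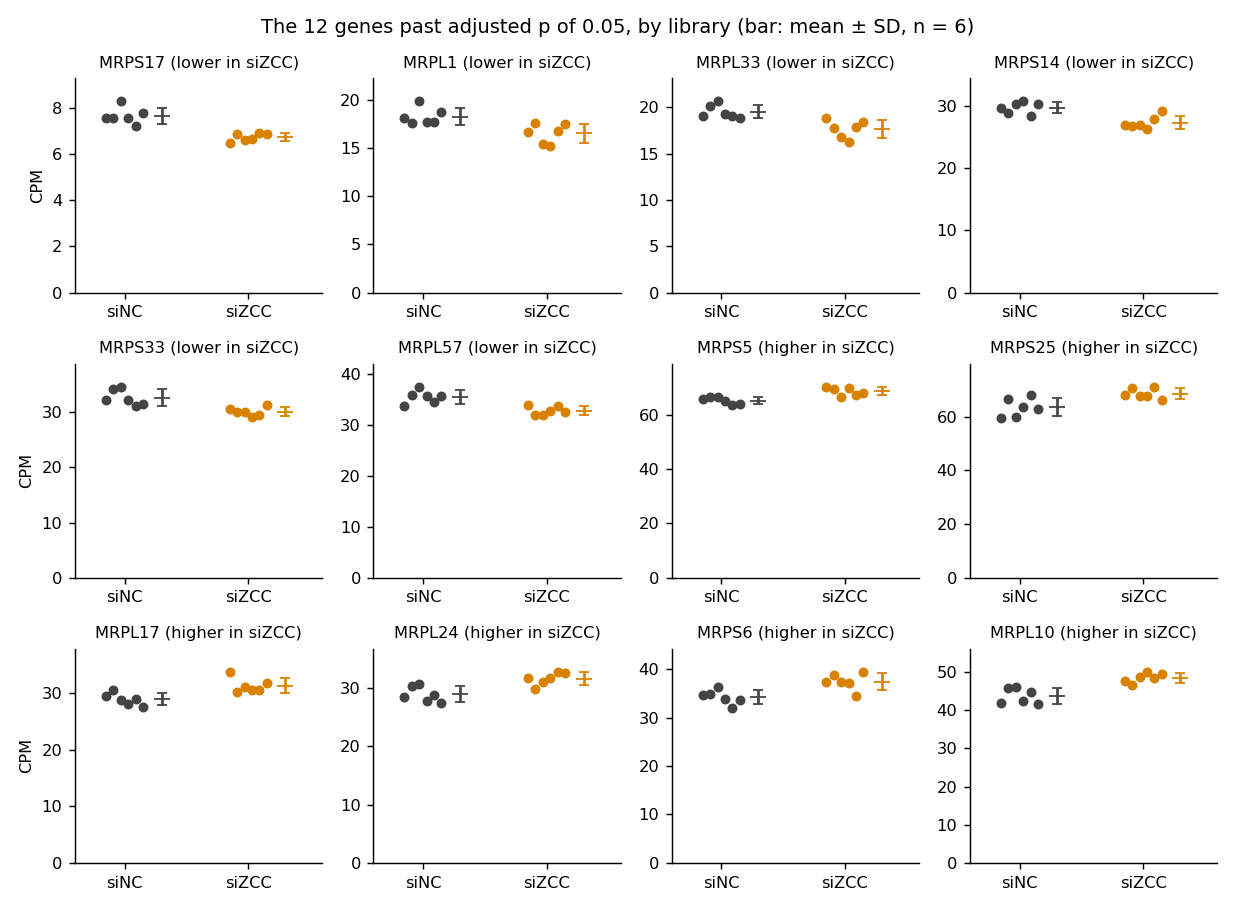
CPM (y axis, from 0) of the 12 genes past an adjusted p of 0.05 in each of the 6 siNC and 6 siZCC libraries, in order of log2 fold change; bars give the mean and SD. The shifts are of a few CPM at most, and MRPL10, MRPS5, MRPL33 and MRPS17 are the genes whose groups do not overlap.

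Names and places in the ribosome differ for a few genes. MRPS30 and MRPS18A carry small subunit names but sit in the large subunit, and MRPS36 is now assigned to the 2-oxoglutarate dehydrogenase complex of the citric acid cycle. None of them passed the test, with log2 fold changes of 0.03 for MRPS30, 0.05 for MRPS18A and -0.06 for MRPS36. Grouped by place, the large subunit had 3 genes higher and 3 lower of 50, and the small subunit 3 and 3 of 25. Beside these stand 22.2% of all genes tested and 31.0% in the same CPM range, called in either direction. Whether the subunits differ was not tested. A further 5 ribosomal protein genes bear other names, and 0 of 5 passed the test, against the same 22.2% of all genes tested. DAP3 had a log2 fold change of 0.0032, PTCD3 of 0.05, CHCHD1 of -0.03, AURKAIP1 of 0.06 and GADD45GIP1 of -0.02. In DAP3, a GTP-binding protein of the small subunit, the siNC libraries ran from 61.5 to 66.2 CPM and the siZCC libraries from 60.8 to 64.7.

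The genes left out by the count minimum were MRPL53 and MRPS24. MRPL53 had a mean of 0.25 counts, with 0 to 2 in a library, and shares 45.2% of its exon bases with the same-strand gene CCDC142. MRPS24 had a mean of 40.4 counts (23 to 59), shares 23.2% with the same-strand readthrough gene URGCP-MRPS24, and had a log2 fold change of -0.11 (edgeR adjusted p = 0.705). Just inside the minimum stood MRPS28, with a mean of 485.4 counts, more than 10 times as many as MRPS24. Exon bases shared with another gene were common in the family, affecting 39 of the 76 genes, 14 of them with a gene on the same strand and 5 of them by more than 20%. Rows named as pseudogenes were also counted separately: the table held 76 of them for the 78 symbols, of which 4 averaged at least 50 counts. Pseudogene rows exceeded 5% of the counts of parent and pseudogenes together for MRPS31 (21.0%) and MRPL45 (9.19%) among the 76 genes.

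Per kilobase of the longest annotated transcript, levels within the family spanned a wide range. The median was 15.9 CPM per kilobase for MRPL genes and 13.4 for MRPS genes in siNC. MRPS21 was highest of all at 53.8 ± 1.99 CPM per kilobase in siNC and 52.7 ± 2.27 in siZCC, followed by MRPS34 at 41.8 ± 1.27 and MRPS26 at 40.7 ± 1.47 in siNC, which do not differ from each other beyond their spread. Among MRPL genes, MRPL37 stood at 36.3 ± 0.883, and MRPL51 (35.3 ± 1.37) and MRPL3 (35.2 ± 0.984) followed, with SD ranges that overlap that of MRPL37. At the low end MRPL46 had 1.39 ± 0.0656 CPM per kilobase, MRPL2 had 3.13 ± 0.216 and MRPS17 had 4.15 ± 0.195. The value of MRPL46 rests on a longest transcript of 5561 bases. Per length of all its annotated exons, 6432 bases, it was 1.201, again the lowest. That length cannot be shorter than the longest transcript, so it does not show whether a shorter transcript was the one expressed. Divided by the longest annotated transcript, which reaches 15582 bases for MRPL42, levels within the family differed by up to 38.7 times. How much of this span comes from the annotated lengths was not tested.

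**Figure D3:**
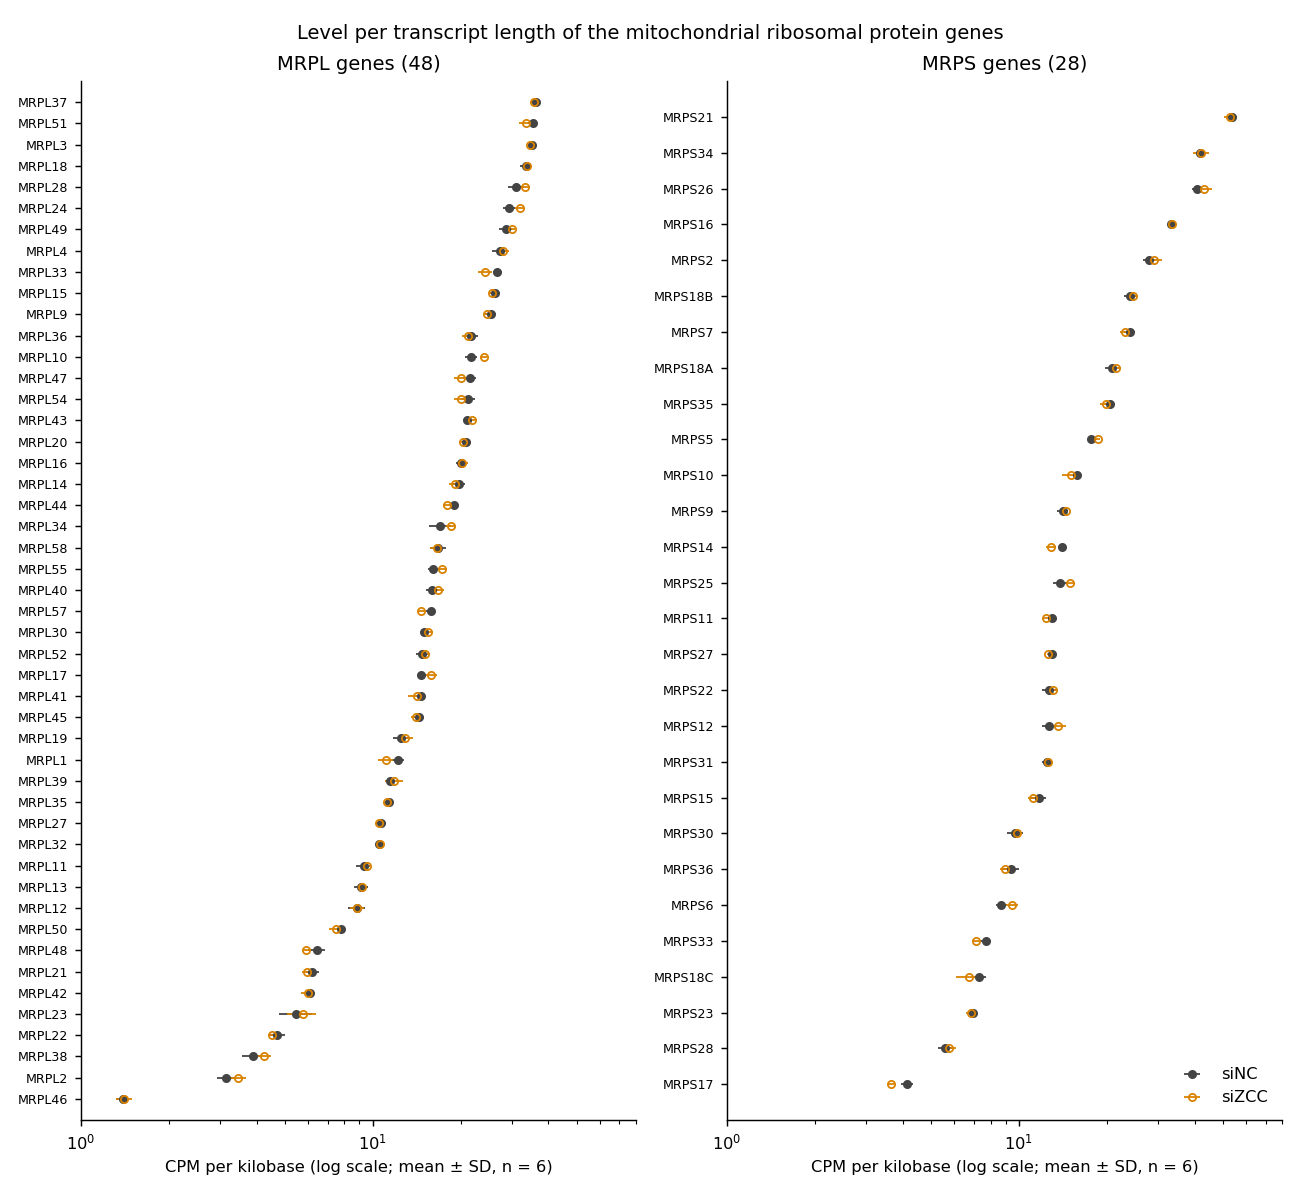
Level per kilobase of longest transcript (x axis, log scale, CPM per kilobase, mean ± SD over 6 libraries) of each MRPL gene (left) and MRPS gene (right), filled for siNC and open for siZCC. MRPS21 at 53.8 and MRPL46 at 1.39 mark the ends in siNC, and the siNC and siZCC points of a gene lie close together over the whole range.

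Averaged over the genes of a subunit, the libraries did not separate by siRNA. The mean log2 CPM of the 48 MRPL genes was 4.61 ± 0.047 in siNC (4.56 to 4.68; SD, n = 6) and 4.61 ± 0.025 in siZCC (4.58 to 4.65). For the 28 MRPS genes it was 4.95 ± 0.034 in siNC (4.92 to 5.01) and 4.95 ± 0.030 in siZCC (4.92 to 5.003). The libraries siNC 3 and siZCC 6 were the highest of their groups for MRPL and for MRPS genes, and also for the cytosolic ribosomal protein genes. In the same libraries the 73 cytosolic RPL and RPS genes had 44 higher (60.3%) and 0 lower in siZCC, against 11.4% and 10.8% of all genes tested. Their median log2 fold change was 0.12. The mitochondrial ones had 6 higher and 6 lower of 76 and a median of 0.0085. The sets differ in level, with mean sums in siNC of 25250 CPM for the cytosolic and 2454 CPM for the mitochondrial genes. The number of cytosolic genes called higher was 28 without siNC 4, siNC 6 or siZCC 6, with 0 lower in each case. It was 3 in the IL1B-high libraries alone, 12 in the IL1B-low libraries alone and 0 at a 1.2-fold minimum change.

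The ribosomal RNAs of the mitochondrial ribosome both rose. MT-RNR2, the 16S RNA of the large subunit, was at 8491, 8778 and 9237 CPM in siNC and 9484, 9640 and 9824 CPM in siZCC. Every siZCC library was above every siNC library, and the log2 fold change was 0.13 (SE 0.0248, edgeR adjusted p = 0.00113). MT-RNR1, the 12S RNA of the small subunit, was at 1029, 1142 and 1194 CPM in siNC and 1168, 1248 and 1417 CPM in siZCC, with a small overlap and a log2 fold change of 0.17 (SE 0.0451, edgeR adjusted p = 0.0124). How the library preparation treated ribosomal RNA is not given in the sources used here, and whether the RNAs changed more than the proteins was not tested.

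**Figure D4:**
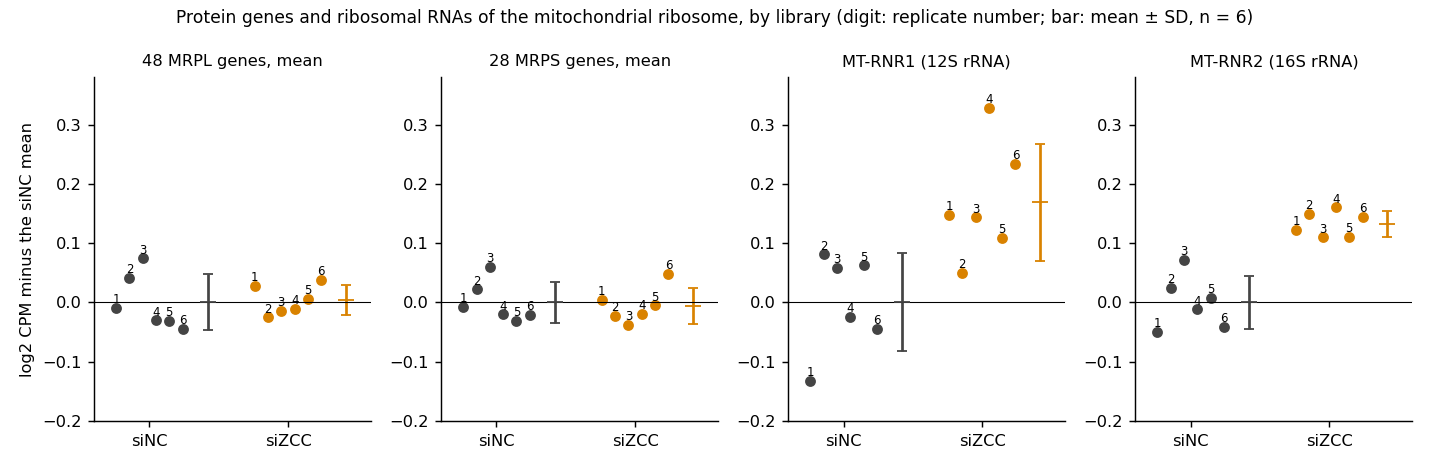
Log2 CPM minus the siNC mean (y axis) in each library (digits give the replicate number; bars give mean ± SD, n = 6) for the mean of the 48 MRPL genes, the mean of the 28 MRPS genes, MT-RNR1 and MT-RNR2. The ranges of the protein gene means overlap between siNC and siZCC, while all siZCC libraries lie above all siNC libraries for MT-RNR2.

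Genes that work with the mitochondrial ribosome were read from lists of known members. Of the 15 genes of mitochondrial DNA, 4 rose and 1 fell: the rises were MT-RNR1, MT-RNR2, MT-CO1 (cytochrome c oxidase subunit 1; log2 fold change 0.14, adjusted p = 0.00179) and MT-ND4L (0.11, adjusted p = 0.0167), and MT-ATP6 fell (-0.09, adjusted p = 0.0475), a call that 2 of the 12 fits without 1 library kept, those without siNC 2 or siZCC 6. Of 26 assembly factors 2 rose, the GTPase NOA1 (log2 fold change 0.14) and the 16S RNA methyltransferase MRM1 (0.24), and 0 fell. Translation factors gave 5 higher and 2 lower of 16. The elongation factors TUFM (0.12) and GFM1 (0.11, lost without siZCC 6) and the back-translocase GUF1 (0.20, 46.8 to 53.8 CPM) rose, and the release factor MTRF1L fell (-0.15). Mitochondrial tRNA synthetases and their partners gave 7 higher and 1 lower of 22, with LARS2 (0.17, for leucine) and EARS2 (0.17, for glutamate) having the smallest p. Regulators of mitochondrial transcription and biogenesis gave 2 higher and 1 lower of 15: the nuclear receptor ESRRA (0.21) and the mitochondrial RNA polymerase POLRMT (0.14) rose, and the mitochondrial DNA packaging factor TFAM fell (-0.10, adjusted p = 0.0373), a call kept in 4 of the 12 fits without 1 library, those without siNC 2, siNC 3, siNC 4 or siZCC 2. The adjusted p of each is from edgeR over all genes tested, and the background to these counts is the 11.4% higher and 10.8% lower given above.

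Change and base composition went together within the family. Across the 76 genes, which are not independent replicates and share the same libraries, the log2 fold change and the GC content of the longest transcript had a Pearson r of 0.33 (Spearman rho 0.33), beside 0.12 across the 18179 genes with at least 50 counts and a known GC content. GC content ranged from 33.5% (MRPL13) to 71.9% (MRPL41). The median was 42.7% in the 6 genes that fell, 48.5% in the 6 that rose and 48.7% in the 64 others. With a correction of each library for GC content and transcript length, r over the family was -0.04 (rho 0.03). The correction fits and removes a dependence on GC content over expressed genes, so a weaker relation follows from its design. Over all genes that fit called 3584 higher and 2965 lower, beside 2818 and 2663 without the correction. Of the 76 genes 16 passed the test, 10 of them from the 12. MRPS14 (adjusted p = 0.0625) and MRPS33 (0.0665) no longer passed, and MRPL30, MRPL36, MRPL41, MRPL49, MRPL54 and MRPL55 were added. All 12 kept their sign. What set the relation was not tested.

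**Figure D5:**
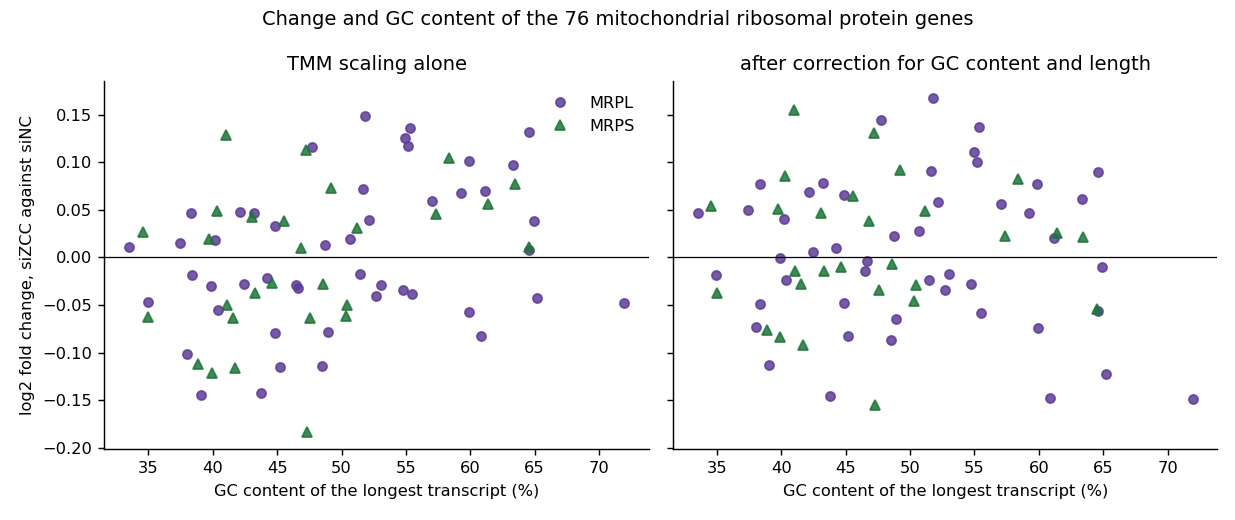
Log2 fold change of siZCC against siNC (y axis) against GC content of the longest transcript in percent (x axis) for the 76 genes, circles for MRPL and triangles for MRPS, without (left) and with (right) the correction for GC content and length. The upward trend on the left has r of 0.33. On the right r is -0.04, after a correction built to remove a dependence on GC content.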

How the data were processed

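RNA-seq of 12 libraries of total RNA (6 siNC, 6 siZCC; NEBNext Ultra II Directional kit, per the labels' protocols) was used. The authors deposited whole-number counts per gene symbol; STAR 2.7.6a, featureCounts 2.0.1, bcl2fastq 2.17 and GRCh38 are named per the submitters' processing notes, while the annotation release and strand setting are not given in the sources used here, so reads of overlapping genes may be split in unknown ways. The counts were tested as deposited with edgeR 4.0.16 in R 4.3.3 (filterByExpr, about 0.0997 CPM, 24671 genes; TMM; quasi-likelihood test over all 12 libraries, two-sided). Adjustment followed Benjamini and Hochberg over every gene tested. The SE is the log2 fold change divided by the square root of F. CPM values are TMM-scaled; log2 CPM uses a prior count of 2. Exact permutation tests are two-sided over 924 splits (smallest p 0.00216), adjusted over all genes. The spread between libraries (biological coefficient of variation 6.55%, a common value over all genes) sets the precision of genes with many counts. In genes with few counts, counting error adds to it. Positions, lengths and GC content came from GENCODE 29, which held all 78 symbols. The test was checked on simulated counts with 200 genes changed. It recovered 60.0, 85.5 and 100% of them at log2 changes of 0.25, 0.5 and 1. Of its calls 2.44, 7.07 and 5.66% were false. With no change it called 0 genes. Changes below 0.25, the size of those in the family, were not simulated.

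The family and every list were chosen with earlier results of these data known. Genes named are ZCCHC17; the 6 smallest p in each direction among genes past 0.05 in MRPL and in MRPS; the extremes of level per length and of change; genes next to the count minimum; MRPS30, MRPS18A, MRPS36; ribosomal proteins with other names; both rRNAs; and the 2 smallest p in each other list. Further genes were named after their values were seen. Replicate numbers do not pair the libraries (same-number correlations -0.106 to 0.198), and replicates differed beyond counting error (chi-square per degree of freedom 5.17 to 25.9 over 30 pairs). Alternatives were DESeq2 1.42.0 (size factors, Wald test), upper quartile scaling, other count filters, limma 3.58.1 voom, a replicate block, a GC and length correction, a 1.2-fold minimum change, leaving out each library and, added after seeing the data, the IL1B sides.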

Additional observations from a re-analysis of the deposited data

Results flagged for a closer look

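In 3 of 82 sets of 6 libraries examined, 1 library stood apart from the other 5 of its group by more than Dixon's 95% limit; chance alone flags about 1 in 20, or 4.1 sets. The lowest total, 90755953 counts, was that of siNC 4, with 109973707 to 120023356 for its 5 fellow controls (gap of 0.657 of the range). For DAP3, siNC 3 was highest at 6.05 log2 CPM against 5.94 to 5.98 (gap of 0.667). For PTCD3, a small subunit protein with RNA-binding repeats, siNC 3 was highest at 6.81 log2 CPM against 6.74 to 6.76 (gap of 0.681).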

How the results depend on the processing

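All 12 called genes kept their sign in 24 of 24 settings, and the count of called genes was 9 to 16 in settings other than the 1.2-fold minimum and the IL1B sides alone. With a 1.2-fold minimum change, 349 genes passed, 0 of them MRPL or MRPS and 0 in the other mitochondrial lists (25 in the main test, 16 with no filter). Among the libraries high in IL1B alone (3 against 3), 2043 genes passed, with 0 MRPL, 0 MRPS and 5 in the other lists; among those low in IL1B, 1602, with 0 MRPL, 1 MRPS (higher) and 4 in the other lists. The cause was not tested, and these fits hold fewer libraries. With the GC and length correction, 6 MRPL were higher and 6 lower, and 1 MRPS was lower, beside 3584 higher and 2965 lower over all genes. With no filter, 1 MRPS was higher. Leaving out 1 library gave 2 to 6 MRPL higher, 2 to 5 lower and 1 to 2 MRPS higher, and 4484 to 5626 genes in all. The replicate block, which rests on numbers that do not pair the libraries (1 of 6 numbers matched its own best), called 4902 genes, with 3 MRPL higher, 3 lower, 2 MRPS higher (MRPS5 lost, adjusted p = 0.102) and 3 lower. The share of calls that were higher was 51.4%, and 46.4% with upper quartile scaling. Signs turned for small changes: MRPL12 (-0.0011 with upper quartile scaling, -0.0565 with the GC correction, -0.0071 in IL1B-low libraries, -0.0179 to 0.0316 leaving out 1 library), MRPL46 (-0.0451 in IL1B-high libraries, -0.0043 to 0.0473), MRPS16 (-0.0015 to 0.0211), DAP3 (-0.0054 with upper quartile scaling, -0.0026 with no filter, -0.0455 in IL1B-high libraries, -0.0087 to 0.0186), GADD45GIP1 (-0.0544 to 0.0151), MRPS28 (-0.0093) and MRPS30 (-0.0153) in IL1B-high libraries, CHCHD1 (0.0038) in IL1B-low libraries and AURKAIP1 (-0.0226) with the GC correction. Depth of at least 76115083 counts leaves the spread between libraries as the limit for genes with many counts.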
